A study of Mus musculus with 3 samples.

Results

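Transcripts of 10 genes of the antioxidant response, *Gclc*, *Gclm*, *Slc7a11*, *Nqo1*, *Hmox1*, *Txnrd1*, *Srxn1*, *G6pdx*, *Nfe2l2* and *Keap1*, were followed through the cell classes of the mouse larynx. They were chosen by symbol, and all 10 were found among the 33696 features of the count tables. The cells came from larynges of Lrig1CreERT2/+; ROSA26CAG−LSL−tdTomato/+ mice, in which tamoxifen given to the animal lets cells that express *Lrig1*, a marker of resting epithelial stem cells, switch on the red protein tdTomato. Sorted tdTomato cells were collected 24 h after recombination into 3 libraries, each pooled from 10 larynges of 5 males and 5 females, so n = 3 pools of a single condition and every comparison is between groups of cells inside the libraries. The animals' age is not given in the labels, a pool cannot be split into its animals, and the reporter marks a cell that expressed *Lrig1* at the time of labelling, along with its progeny. No feature of the count tables is named for tdTomato, which leaves the sort itself unchecked here.

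The transcription factor NRF2, encoded by *Nfe2l2*, is held in the cytoplasm and passed on for degradation by the KEAP1 protein. Oxidants and electrophiles modify KEAP1, NRF2 then builds up in the nucleus, and it binds antioxidant response elements near genes that make glutathione, reduce quinones, recharge thioredoxin and supply NADPH. In airway and upper digestive epithelium these genes meet inhaled oxidants, and NRF2 activity is controlled mainly at the protein level, which transcript counts do not measure.

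Libraries 1, 2 and 3 held 18068, 10816 and 31646 barcodes, of which 13222, 7201 and 24119 were kept as cells with a median of 10516, 14001 and 10071 unique molecular identifiers (UMIs, 1 per captured transcript). Between 46 and 165 barcodes were shared by a pair of libraries. Classes were set by UMI counts of fixed marker genes: *Epcam* or *Cdh1* for the epithelium, then *Trp63* and *Krt5* for basal cells with or without *Nkx2-1*, *Krt13* and *Krt4*, *Scgb3a2*, *Scgb1a1*, *Muc5b*, a luminal set led by *Muc4* and *Sult1b1*, gland acinar genes and ciliary genes. These gates placed 21686 of 27633 epithelial cells in a class. Markers of macrophages, muscle satellite cells and fibroblasts also gated cells out of the epithelium and into those classes. Their sums, given next, follow in part from these gates and are no separate test of purity. Summed markers of macrophages reached at most 3.04 CPM (UMI counts scaled to the same total for every sum) in the epithelial classes, against 11066 to 17342 CPM in macrophages, and those of muscle satellite cells at most 9.19 CPM against 1107 to 1788 CPM. Fibroblast markers lay between 6.93 and 306 CPM in the epithelial classes, highest in *Nkx2-1*-positive basal cells, against 12543 to 15402 CPM in fibroblasts; their part in the results was not tested.

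The members lie on chromosomes 2, 3, 8, 9, 10 and X of GRCm39, the build the counts were made on. In the GENCODE vM39 annotation, *Gclc* spans chr9:77661797-77701770 on the plus strand with 16 exons, *Gclm* chr3:122039126-122065061 on the plus strand with 7 exons, and *Nqo1* chr8:108113835-108129934 on the minus strand with 6 exons. *Slc7a11* spans chr3:49846975-50398070 on the minus strand with 12 exons, and *G6pdx* chrX:73449857-73472819 on the minus strand with 13 exons. *G6pdx* overlaps *Ikbkg* on the opposite strand. *Txnrd1* overlaps *Eid3* on its own strand, so reads over that shared stretch could fall to either gene. *Gclm*, *Slc7a11* and *Nfe2l2* also overlap genes on their own strand, none of them annotated as protein-coding.

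To show what NRF2 could bind near the start sites, the 500 bases before each canonical start were searched on both strands for the core of the antioxidant response element, TGACNNNGC, in which N is any base. The core was present before 3 of 10 members, *Gclm*, *Txnrd1* and *Nfe2l2*, and before 16.7% of 21757 protein-coding genes. Sequence further away or near other start sites was not searched, so a gene without a match may still have an element elsewhere. The matches are printed 5′ to 3′ on the strand that reads the core, which is in capitals, with 10 bases to each side.
Gclm, 54 bases before the start: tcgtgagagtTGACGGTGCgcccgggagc
Txnrd1, 371 bases before the start: gcactggctgTGACCCTGCcaaatagttg
Txnrd1, 65 bases before the start: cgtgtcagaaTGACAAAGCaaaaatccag
Nfe2l2, 262 bases before the start: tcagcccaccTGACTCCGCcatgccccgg
They lie at chr3:122039062-122039090, chr10:82694632-82694660, chr10:82694938-82694966 and chr2:75535229-75535257, each on the minus strand. The AP-1 letters TGANTCA, which can overlap the core, were found in that window before *Srxn1* and *G6pdx*, and before 12.3% of all genes. None of the 4 cores contained them, and a match is a description of letters, not of binding.

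Across the epithelium the members did not share a single order of classes. *Nqo1* led in stratified cells, *Gclm* in basal cells, *Srxn1* and *Txnrd1* in ciliated cells and *Slc7a11* in gland cells, while *Nfe2l2* and *Keap1* varied least. Over the 7 epithelial classes measured in all 3 libraries, the ratio of the highest to the lowest class mean was 9.58 for *G6pdx*, 8.20 for *Nqo1*, 7.33 for *Slc7a11*, 3.65 for *Gclm*, 3.03 for *Srxn1* and 1.54 to 2.79 for the others, with *Keap1* at 1.54 and *Nfe2l2* at 1.71.

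**Figure D1:**
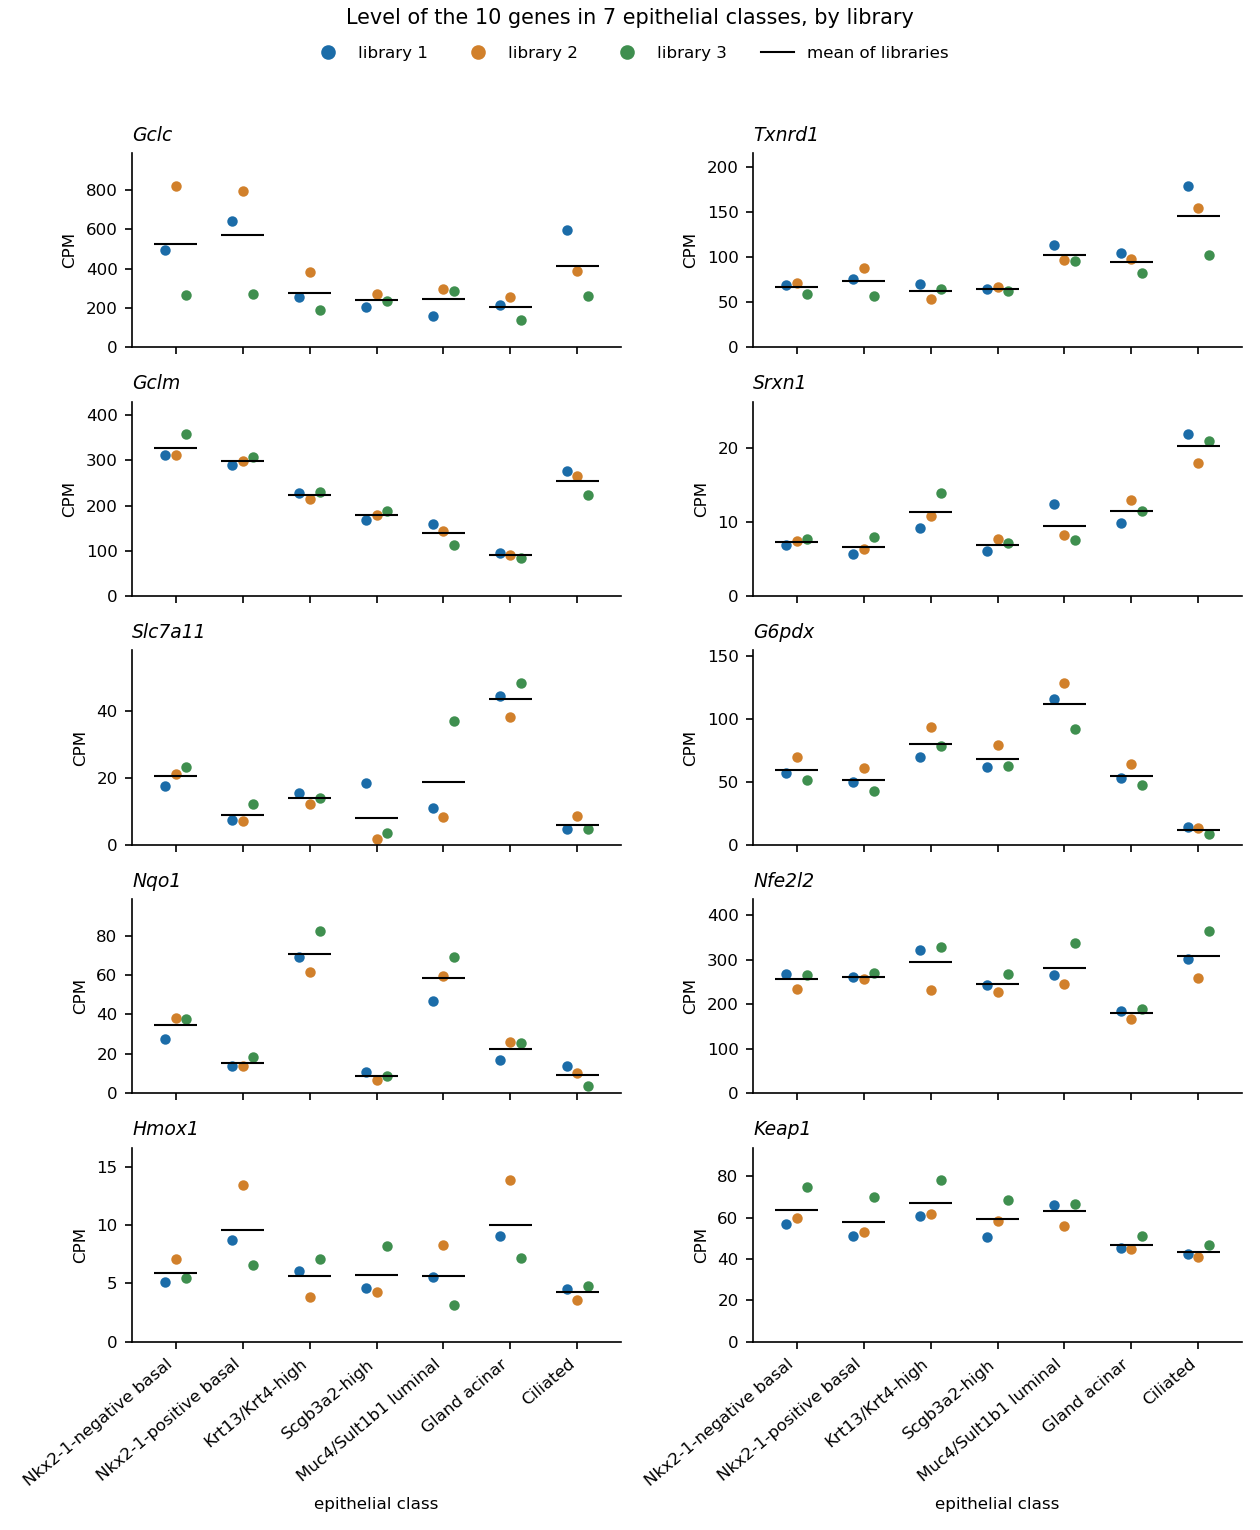
Level of each gene in CPM (y axis, linear from 0) in 7 epithelial classes (x axis). Points are the 3 libraries and lines their mean. *Nqo1* lies between 61.4 and 82.1 CPM in Krt13/Krt4-high cells and between 13.6 and 18.2 CPM in *Nkx2-1*-positive basal cells, and *Gclc* spreads between libraries far more than *Gclm* does.

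*Gclc* encodes the catalytic subunit and *Gclm* the modifier subunit of glutamate-cysteine ligase, the rate-limiting enzyme of glutathione synthesis. *Gclm* was measured at 312, 312 and 358 CPM in libraries 1, 2 and 3 of *Nkx2-1*-negative basal cells, at 291, 299 and 307 CPM in *Nkx2-1*-positive basal cells, at 227, 215 and 230 CPM in Krt13/Krt4-high cells and at 95.6, 90.2 and 83.0 CPM in gland acinar cells. The 3 libraries of a class stood above all 3 of the next class at 5 of 6 steps of this order, the exception being the step from ciliated (255 ± 28.0, SD) to Krt13/Krt4-high cells (224 ± 8.30). Outside the epithelium *Gclm* lay between 37.0 and 93.7 CPM.

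*Gclc* spread widely between the libraries of basal cells. It was at 492, 820 and 268 CPM in libraries 1, 2 and 3 of *Nkx2-1*-negative basal cells and at 643, 796 and 268 CPM in *Nkx2-1*-positive basal cells, so that no neighbouring classes stood apart in the order of its levels. Inside each library *Nkx2-1*-positive basal cells stood above ciliated, ciliated above Krt13/Krt4-high and these above gland acinar cells. The remaining classes changed places between libraries. The highest library exceeded the lowest by 3.06 times in *Nkx2-1*-negative basal cells, where *Gclm* differed by 1.15 times, and 0.44% of the 2044 genes at 100 CPM or more in these cells had a ratio as large. Library 2 was above library 1 and library 1 above library 3 in 7 of 11 classes, fibroblasts and muscle satellite cells included, with *Gclc* at 118, 100 and 71.5 CPM in that order in fibroblasts. In ciliated cells library 1 was highest, with 594 CPM against 389 and 259 CPM in libraries 2 and 3. What differs between the pools is not given in the labels, and its part in these values was not tested.

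**Figure D2:**
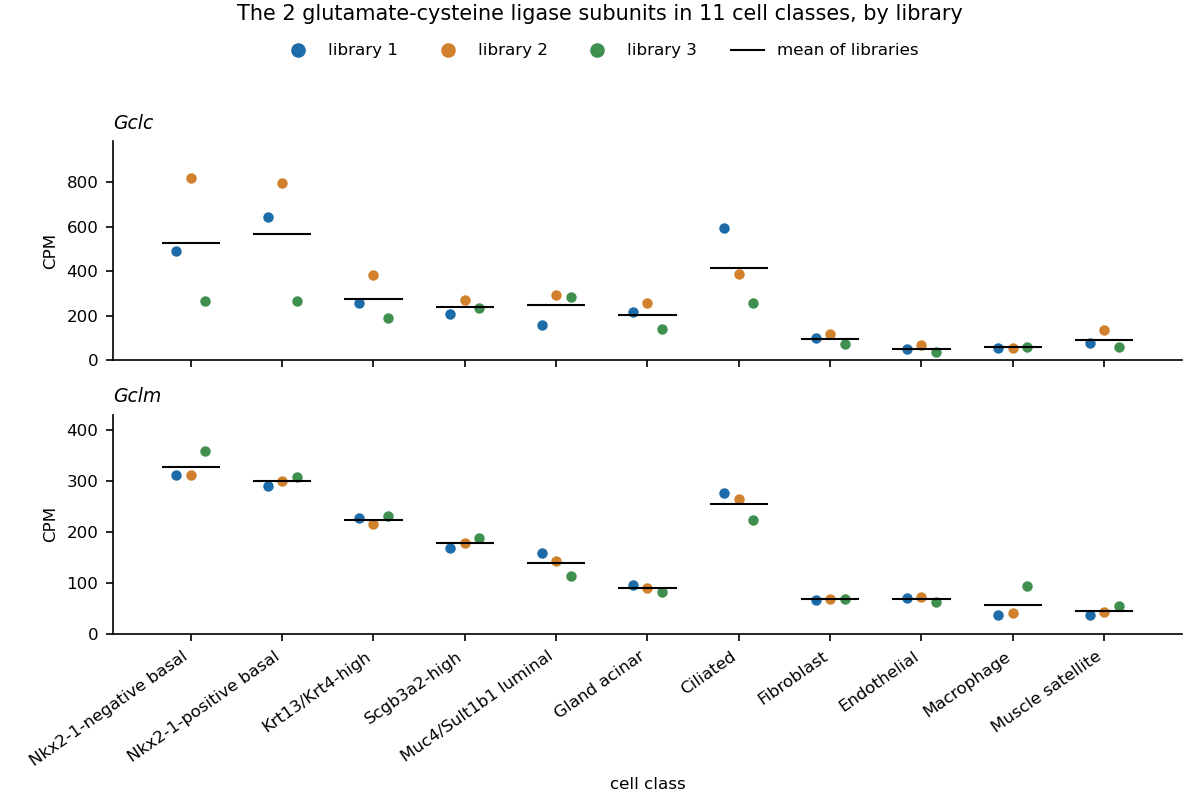
Levels of the catalytic (*Gclc*, top) and modifier (*Gclm*, bottom) subunit in CPM (y axes, linear from 0) in 11 cell classes (x axis). Points are libraries and lines their mean. *Gclc* ranges from 268 to 820 CPM between libraries of *Nkx2-1*-negative basal cells, and *Gclm* from 312 to 358 CPM.

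*Slc7a11*, the cystine importer that supplies cysteine for glutathione, was measured at low levels in most epithelial classes. It was at 44.4, 38.1 and 48.4 CPM in gland acinar cells, above every library of the other 6 classes measured in all libraries, at 17.5, 21.2 and 23.2 CPM in *Nkx2-1*-negative basal cells and at 7.24, 7.11 and 12.2 CPM in *Nkx2-1*-positive basal cells. Among Muc5b-high cells, with 27 and 25 cells in libraries 1 and 3, it was at 32.7 and 235 CPM, values that differ too much for a mean to be read. The highest level in all classes was outside the epithelium, at 329, 392 and 429 CPM in muscle satellite cells, and fibroblasts held 69.3, 77.3 and 46.9 CPM.

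*Hmox1*, the inducible heme oxygenase that opens the heme ring, had its highest level in macrophages. Macrophages were few and held 341 *Hmox1* UMIs, against 854 in *Nkx2-1*-negative basal cells, 838 in *Nkx2-1*-positive basal cells and 629 in fibroblasts. Macrophages held 198, 349 and 315 CPM, from 73, 29 and 23 cells, and the epithelial classes measured in all libraries 3.14 to 13.9 CPM. None of the 6 steps between epithelial classes separated all libraries. Fibroblasts, at 18.0, 20.4 and 13.5 CPM, were next after macrophages.

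**Figure D3:**
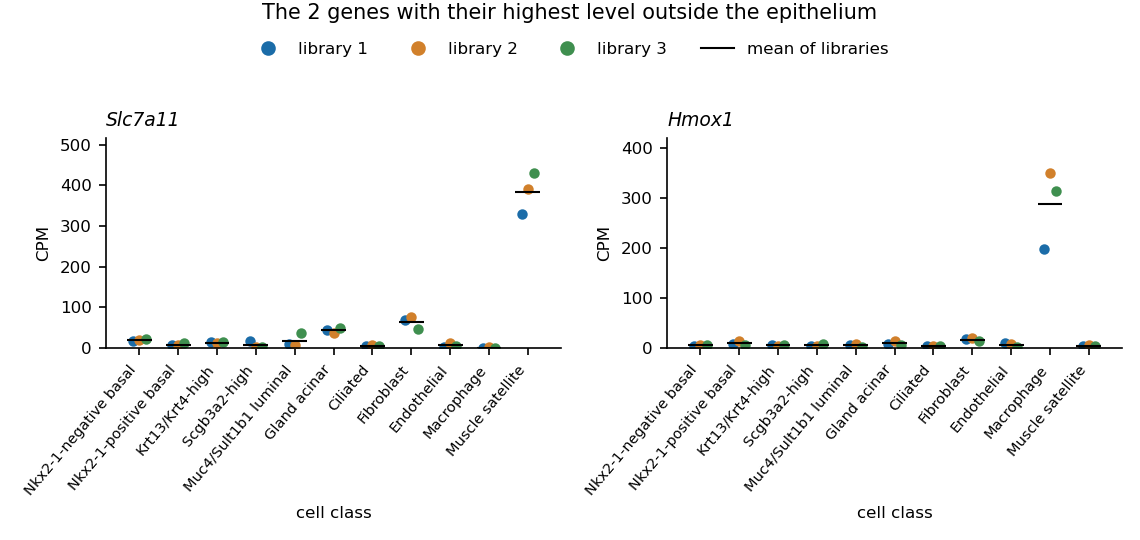
*Slc7a11* (left) and *Hmox1* (right) in CPM (y axes, linear from 0) in 11 cell classes (x axes), points for libraries and lines for their mean. *Slc7a11* reaches 329 to 429 CPM in muscle satellite cells and *Hmox1* 198 to 349 CPM in macrophages.

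*Nqo1* encodes a quinone reductase that is among the most used readouts of NRF2. Its order ran from Krt13/Krt4-high cells (69.0, 61.4 and 82.1 CPM) through the luminal cells with *Muc4* and *Sult1b1* (46.8, 59.4 and 69.0 CPM) to *Nkx2-1*-negative basal cells (27.5, 37.9 and 37.7 CPM). Gland acinar cells followed with 16.8, 25.7 and 25.4 CPM and *Nkx2-1*-positive basal cells with 13.6, 13.7 and 18.2 CPM, and these classes overlapped. Ciliated cells, with 13.8, 10.3 and 3.79 CPM, and Scgb3a2-high cells, with 10.6, 6.84 and 8.46 CPM, had the lowest means of the 7 classes and overlapped as well. The Krt13/Krt4-high and luminal classes overlapped, and both stood above *Nkx2-1*-negative basal cells in every library. When each cell was thinned to 5000 UMIs, 26.3% to 32.6% of Krt13/Krt4-high cells held an *Nqo1* UMI in the 3 libraries, against 10.97% to 15.0% of *Nkx2-1*-negative and 6.95% to 9.46% of *Nkx2-1*-positive basal cells. In muscle satellite cells, the class of lowest share with values from all libraries, it was 0.938% to 1.41%.

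*Txnrd1*, which reduces thioredoxin with NADPH, and *Srxn1*, which repairs overoxidized peroxiredoxins, were both highest in ciliated cells among the epithelial classes measured in all libraries. *Srxn1* was at 21.8, 18.0 and 20.8 CPM there, above every library of the other epithelial classes measured in all libraries, which lay between 5.70 and 13.8 CPM. Fibroblasts, at 19.7, 13.6 and 22.9 CPM, overlapped with ciliated cells. *Txnrd1* was at 180, 155 and 102 CPM in ciliated cells, which overlapped with the luminal cells (114, 97.4 and 96.0 CPM).

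*G6pdx*, the enzyme that opens the pentose phosphate pathway and makes NADPH, took the opposite course in ciliated cells. It was at 13.8, 13.1 and 8.28 CPM there, below every library of the other 6 classes, and at 116, 129 and 92.2 CPM in the luminal cells and 69.6, 93.3 and 78.4 CPM in Krt13/Krt4-high cells. *Nfe2l2* lay between 228 and 363 CPM in 6 of the 7 classes and at 180 ± 12.5 CPM (SD, n = 3) in gland acinar cells, below all of them. *Keap1* lay between 50.7 and 78.1 CPM in 5 classes, with lower means in gland acinar (47.0 ± 3.39 CPM) and ciliated cells (43.4 ± 3.05 CPM). The last pair overlapped, and the step from *Nkx2-1*-positive basal to gland acinar cells was the 1 of 6 without overlap.

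Classes were then compared by summed counts per library. Fold changes below are on the log2 scale with a standard error (SE) and an edgeR quasi-likelihood adjusted p. This SE is the size of the fold change divided by the square root of the test's F statistic, and was not estimated separately. These fold changes are relative to the other genes tested, through TMM factors (trimmed mean of M values), whereas CPM are shares of all UMIs of a sum. On the scale of CPM, without those factors, the median over all genes moved from −0.07 to −0.20 for Krt13/Krt4-high, from −0.31 to −0.70 for Scgb1a1-high, from −0.04 to −0.14 for Scgb3a2-high, from −0.03 to −0.28 for ciliated and from −0.05 to −0.43 for gland acinar cells. The split of called genes moved with it in the same order, from 1474 higher and 1655 lower to 761 and 2497, from 369 and 177 to 239 and 1202, from 629 and 471 to 443 and 746, from 5626 and 5243 to 4614 and 6587, and from 3047 and 2605 to 1789 and 6716. Calls that differ on that scale are given below as on the CPM scale.

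The first comparison set the stratified Krt13/Krt4-high cells, which carry the keratins of the upper layers of squamous epithelium, against *Nkx2-1*-negative basal cells. The gate of the Krt13/Krt4-high class set no limit on *Trp63*. Of its 1147 cells, 302 and 740 held *Trp63* UMIs and entered the groups with and without *Atf3* or *Hbegf* UMIs compared below. The comparison is thus not one of *Trp63*-negative upper layers against basal cells. *Nqo1* rose by 1.18 (SE 0.24, adjusted p = 0.0020), *Srxn1* by 0.77 (SE 0.17, adjusted p = 0.00357) and *G6pdx* by 0.56 (SE 0.18, adjusted p = 0.0317), while *Gclm* fell by 0.42 (SE 0.11, adjusted p = 0.00986). These were 4 of 10 members called, against 18.5% of 16868 genes. *Nqo1* was higher in 3 of 3 libraries, and its call stayed in all 14 alternatives run for it, at 1.04 to 1.42. The gate asked for at least 50 UMIs of *Krt13* and *Krt4*. Median UMIs in libraries 1, 2 and 3 were 25362, 29387 and 26358.5 in Krt13/Krt4-high and 15925.5, 19851 and 12694 in *Nkx2-1*-negative basal cells. The alternative thinned to 5000 UMIs kept classes set on full counts, and the part of this gap in the values was not tested.

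With the library as a replicate block, since classes of 1 library share their animals, 7 of 10 members were called, against 34.8% of genes. The block added *Nfe2l2* at 0.32 (SE 0.094, adjusted p = 0.0103), *Keap1* at 0.20 (SE 0.063, adjusted p = 0.0155) and *Gclc*, which fell by 0.75 (SE 0.28, adjusted p = 0.0394). On the CPM scale with the block *Nfe2l2* was at 0.19 (adjusted p = 0.168) and *Keap1* at 0.07 (0.420), neither called, and 5 of 10 members were, against 36.8% of genes. The call of *Gclm* was lost without library 1 (adjusted p = 0.0797) or 2 (0.142) and with the gate thresholds halved (0.131), and that of *Srxn1* without library 3 (0.0659) and with each cell thinned to 5000 UMIs (0.120). *G6pdx* was not called without library 1, 2 or 3 (0.212, 0.0584 and 0.0578), with thresholds halved (0.0620) or on the CPM scale, at 0.44 (0.0773). Without library 1 or 2 the count of members called was 2, against 6.45% and 9.82% of genes.

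Of 41 other genes of the NRF2 and glutathione system, 15 rose in Krt13/Krt4-high cells and 0 fell without the block, against the same 18.5% of genes, with a median of 0.38 against −0.07 over all genes tested. *Aldh3a1*, an aldehyde dehydrogenase abundant in surface epithelium, rose by 1.12 (SE 0.18, adjusted p = 1.5e-04) and *Gsta4*, a glutathione transferase for lipid aldehydes, by 1.10 (SE 0.12, adjusted p = 2.98e-06). The lowest values were −0.42 for *Maff* and −0.33 for *Slc3a2*, the partner chain of the cystine importer, with adjusted p = 0.251 and 0.335. With the block the count was 24 higher and 2 lower, against 34.8%.

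*Nkx2-1* marks basal cells of respiratory type, and the second comparison set *Nkx2-1*-positive against *Nkx2-1*-negative basal cells. The gates also asked for at least 1 *Krt5* UMI in the positive and at least 5 in the negative class. Median UMIs in libraries 1, 2 and 3 were 14504, 18221.5 and 10264.5 in positive and 15925.5, 19851 and 12694 in negative cells. The part of these gate differences in the values was not tested. *Nqo1* fell by 1.19 (SE 0.25, adjusted p = 0.00497), 1 of 10 members against 4.87% of genes called. With the block *Slc7a11* joined it, falling by 1.24 (SE 0.36, adjusted p = 0.0231), which made 2 of 10 members against 14.0% of genes. Without library 2 *Nqo1* was at −1.04 with adjusted p = 0.251 and no member was called, and without library 3 both genes were called, *Slc7a11* at −1.45 (adjusted p = 0.0297). With the study's cell limits as worded, 500 to 8000 UMIs, *Nqo1* was at −0.61 and no gene was called. *Gclm* was at −0.14 (SE 0.11), *Gclc* at 0.11 (SE 0.40) and the remaining 6 members between −0.22 and 0.69, none called. Among the 41 further genes 0 rose and 3 fell without the block, against 4.87%, with *Aldh3a1* falling by 1.38 (SE 0.18, adjusted p = 3.9e-05) and *Nfe2l3*, a relative of NRF2, by 0.70 (SE 0.17, adjusted p = 0.0159). The largest positive values were 0.61 for *Slc3a2* and 0.50 for *Me1*, at adjusted p = 0.146 and 0.0901. With the block the count was 5 higher and 8 lower, against 14.0%.

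Secretory, ciliated and gland cells were compared with *Nkx2-1*-positive basal cells. Scgb1a1-high cells, which express the club cell secretoglobin, numbered 38, 9 and 16, so that only library 1 gave a sum of at least 20 cells and this lone sum was assumed to vary like those of other classes. No member was called there, against 3.24% of genes, and *Slc7a11* had 0 UMIs among 493847, which allows up to 6.07 CPM and covers counting error only. The median over all genes was −0.31. *Gclm* was at −0.60 (adjusted p = 0.0854), *Gclc* at −0.75 (0.705) and *G6pdx* at 0.73 (0.388). *Gclm* was called without library 3 at −0.59 (adjusted p = 0.0476), with the gate thresholds doubled at −0.66 (0.0126) and on the CPM scale at −0.995 (0.00298). Calls for this lone sum rest on the spread of the other classes and not on replicates of its own. Of the 41 further genes 9 passed the threshold above 0 and 0 below it, against 3.24%, with a median of 0.25, and on the CPM scale 3 and 1, against 8.54%, with a median of −0.14 against −0.70 over all genes. The highest values were those of *Idh1*, a source of cytosolic NADPH, at 1.76 and *Blvrb*, a biliverdin reductase, at 1.63.

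In Scgb3a2-high cells *Gclm* fell by 0.65 (SE 0.11, adjusted p = 0.00065), the only member called, against 6.52% of genes. With the block *Gclc* fell by 1.03 (SE 0.28, adjusted p = 0.0153) and *G6pdx* rose by 0.52 (SE 0.089, adjusted p = 0.000353), making 3 members against 15.3% of genes. Without library 1 or 2 the adjusted p of *Gclm* was 0.0575 or 0.0608 and no member was called, and without library 3 *Gclc* was called as well, at −1.49 (adjusted p = 0.00618). Of the 41 further genes 5 rose and 0 fell, against 6.52%, and 12 and 1 with the block, against 15.3%, with *Taldo1* of the pentose phosphate pathway at 0.88 and *Idh1* at 0.81.

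In ciliated cells *Srxn1* rose by 1.85 (SE 0.18, adjusted p = 8.83e-09), *Txnrd1* by 1.24 (SE 0.18, adjusted p = 4.19e-06) and *Nfe2l2* by 0.49 (SE 0.15, adjusted p = 0.00735). *G6pdx* fell by 1.86 (SE 0.21, adjusted p = 9.23e-08) and *Hmox1* by 0.90 (SE 0.35, adjusted p = 0.0274). *Gclm* was at 0.02 (SE 0.11) and *Gclc* at −0.22 (SE 0.40), neither called. On the CPM scale *Gclm* was at −0.23 (SE 0.11, adjusted p = 0.0768), and with the block at −0.23 with adjusted p = 0.0275. *Nfe2l2* was not called on that scale, at 0.24 (adjusted p = 0.192), and *Keap1* was, at −0.42 (0.0155). The 5 of 10 members called stand against 64.4% of genes. *Hmox1* was not called without library 1 (adjusted p = 0.139) or 2 (0.204), by DESeq2 (0.0507) or with cells thinned to 5000 UMIs (0.218), while *Srxn1*, *Txnrd1* and *G6pdx* kept their calls in all 15 alternatives. Of the 41 further genes 18 rose and 12 fell, against 64.4%, and on the CPM scale 15 and 13, against 66.4%, with the glutathione conjugate exporter *Abcc1* at 1.95, the ferritin heavy chain *Fth1* at 1.68, *Slc3a2* at −2.30 and *Aldh3a1* at −3.20.

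In gland acinar cells *Slc7a11* rose by 2.68 (SE 0.47, adjusted p = 1.15e-04), *Srxn1* by 1.14 (SE 0.18, adjusted p = 2.93e-05), *Nqo1* by 0.95 (SE 0.26, adjusted p = 0.00704), *Txnrd1* by 0.75 (SE 0.18, adjusted p = 0.00248) and *G6pdx* by 0.48 (SE 0.18, adjusted p = 0.0459). Both ligase subunits fell, *Gclm* by 1.35 (SE 0.11, adjusted p = 4.77e-09) and *Gclc* by 1.11 (SE 0.41, adjusted p = 0.0396). These are 7 of 10 members, against 33.5% of genes. *Slc7a11*, of the cystine importer, and *Gclm*, of the ligase, moved in opposite directions and were called in all 15 alternatives. On the CPM scale 5 of 10 members were called, 2 higher and 3 lower, against 50.4% of genes. There *Nqo1* was at 0.56 (adjusted p = 0.0890), *Txnrd1* at 0.37 (0.0723) and *G6pdx* at 0.10 (0.647), none called, and *Nfe2l2* fell by 0.54 (0.00779). *Nqo1* was also not called without library 2 (adjusted p = 0.150), *Txnrd1* not without library 1 (0.0661) and *Srxn1* not with the cell limits as worded (0.281). *Gclc* was not called without library 1 (0.253) or 2 (0.143), with doublets kept (0.0637) or with only the classes compared in the fit (0.0757). *G6pdx* lost its call in 8 of 15 alternatives, among them without library 1 (0.253) and without library 2 (0.0735). With each cell thinned to 5000 UMIs *Nqo1* was at 0.43 (adjusted p = 0.212), and with the cell limits as worded it was at −0.00497. Of the 41 further genes 19 rose and 4 fell, against 33.5%, with a median of 0.31, and on the CPM scale 11 and 11, against 50.4%, with a median of −0.08 against −0.43 over all genes. They were led by *Taldo1* at 1.95 and *Gsta4* at 1.18, with *Maff* at −0.98 and *Ugdh* at −0.86.

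**Figure D4:**
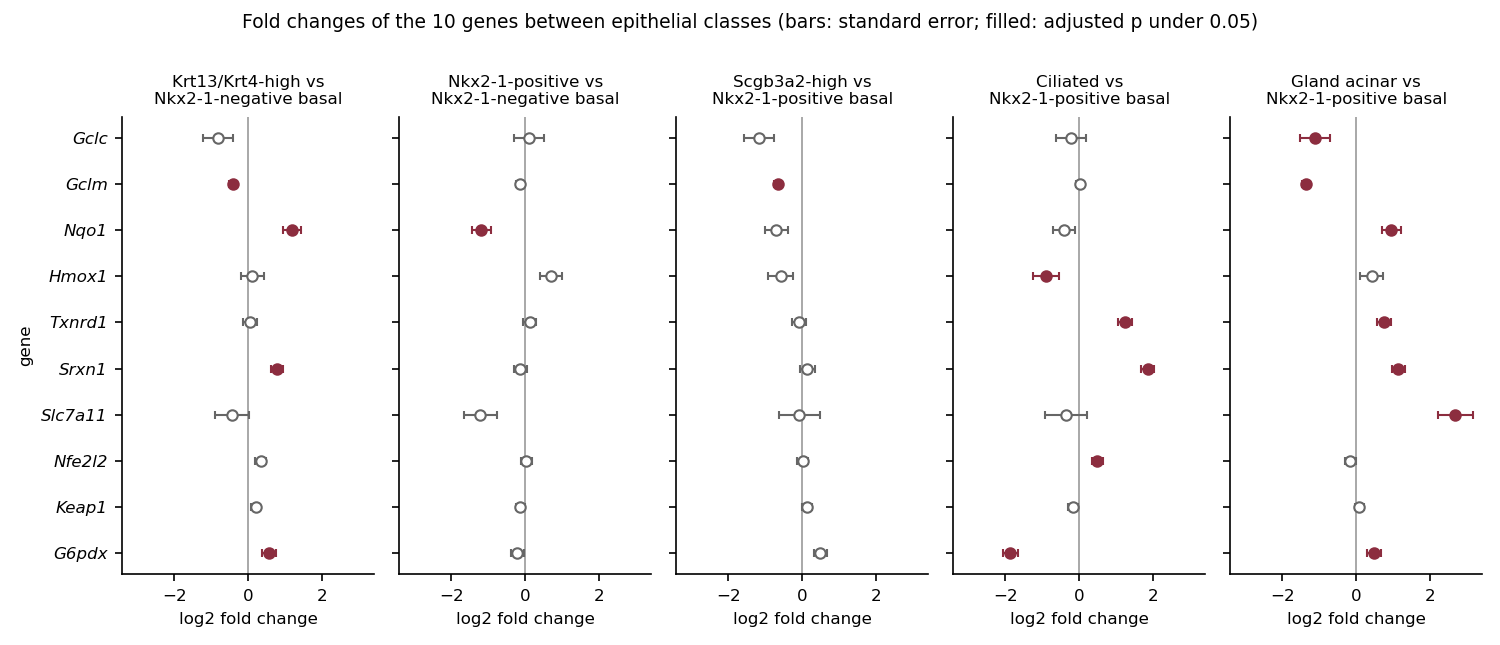
Log2 fold change (x axis) of the 10 genes (y axis) in 5 comparisons of epithelial classes. Bars are the standard error obtained from the fold change and its F statistic. Filled points have an edgeR adjusted p under 0.05. Values are scaled by TMM, without the block. *Nqo1* moves by 1.18 and −1.19 in the left panels, *Srxn1* by 1.85 in ciliated cells and *Slc7a11* by 2.68 in gland acinar cells.

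Another 3 lists were counted in the same fits, without the block unless stated. The heme and iron list shares *Ftl1*, *Fth1*, *Blvra* and *Blvrb* with the further NRF2 and glutathione genes, so the counts of these lists are not separate. The shares of all genes called were 18.5% in Krt13/Krt4-high, 6.52% in Scgb3a2-high, 64.4% in ciliated and 33.5% in gland acinar cells. Of 16 genes of the ATF4 and amino acid response, which includes enzymes of serine and asparagine synthesis, 4 rose and 0 fell in Krt13/Krt4-high cells, 1 rose and 1 fell in Scgb3a2-high cells, 4 rose and 10 fell in ciliated cells, and 6 rose and 3 fell in gland acinar cells. Of 20 AP-1 and dissociation response genes 3, 0, 2 and 2 rose and 0, 0, 12 and 1 fell in the same order. Of 11 heme and iron genes 3, 2, 5 and 5 rose and 1, 0, 3 and 1 fell. Between the basal classes none of these genes was called, against 4.87%, and for the lone sum of Scgb1a1-high cells 1, 0 and 4 passed the threshold above 0 and 0 below it, against 3.24%. With the block 8 ATF4 and 7 AP-1 genes rose and 0 fell in Krt13/Krt4-high cells, and 4 heme and iron genes rose and 2 fell, against 34.8%. Between the basal classes 1 ATF4 gene rose and 3 fell with the block, 0 AP-1 genes rose and 4 fell, and 2 heme and iron genes rose and 1 fell, against 14.0%. In Scgb3a2-high cells 2 AP-1 genes fell and 4 heme and iron genes rose with it, against 15.3%, and in gland acinar cells 6 ATF4 genes rose and 5 fell and 2 AP-1 genes rose and 3 fell, against 45.8%. On the CPM scale without the block the shares of all genes called were 19.3% in Krt13/Krt4-high, 4.83% between the basal classes, 8.54% in Scgb1a1-high, 7.05% in Scgb3a2-high, 66.4% in ciliated and 50.4% in gland acinar cells. The balance turned for AP-1 genes in gland acinar cells, where 1 rose and 4 fell, and for heme and iron genes in ciliated cells, where 3 rose and 4 fell. Of the ATF4 genes 6 rose and 5 fell in gland acinar and 3 rose and 10 fell in ciliated cells on that scale. Of the heme and iron genes 4 rose and 2 fell in gland acinar cells, with a median of −0.06 in place of 0.31. Of the AP-1 genes 2 rose and 14 fell in ciliated and 0 rose and 1 fell in Scgb3a2-high cells. In Krt13/Krt4-high cells 3 ATF4 and 2 AP-1 genes rose. For the lone Scgb1a1-high sum 0 AP-1 genes were past the threshold above 0 and 2 below it, and 2 heme and iron genes above and 1 below. The remaining counts were the same on both scales. *Nupr1*, a stress-responsive nuclear protein of the ATF4 list, had the largest rise in gland acinar and ciliated cells, by 6.19 (SE 0.37, adjusted p = 5.06e-11) and 5.80 (SE 0.36, adjusted p = 7.34e-12).

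The last comparisons stayed inside the *Trp63*-positive epithelium, where p63 marks basal and parabasal cells. Immediate early genes such as *Atf3* and *Hbegf* are known to respond to tissue dissociation, and cells with at least 1 UMI of either were set against cells with none, after each cell had been thinned to 5000 UMIs. There were 801, 646 and 1566 cells with such a UMI, 19.0%, 17.7% and 12.5% of the cells deep enough to be thinned. A cell without such a UMI can still express either gene.

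*Nqo1* was higher in cells with *Atf3* or *Hbegf*, at 32.7, 38.4 and 41.6 CPM against 23.3, 27.2 and 29.8 CPM in cells without. All 3 sums with stood above all 3 without, and the log2 ratio was 0.49, 0.50 and 0.48 in libraries 1, 2 and 3. Without the block no member was called, against 0.0% of 14435 genes, with 848 genes at an unadjusted p under 0.05 in edgeR and 57 called by DESeq2; *Nqo1* was at 0.52 (SE 0.13, adjusted p = 0.756). With the library as a block *Nqo1* rose by 0.52 (SE 0.087, adjusted p = 0.0138), 1 of 10 members against 3.19% of genes. Without library 3 the blocked value was 0.54 with adjusted p = 0.0600, for *Atf3* alone 0.43 (0.113) and for *Hbegf* alone 0.63 (0.00209).

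The groups also differed in makeup. Cells with *Nkx2-1* UMIs, of any class, made up 22.7%, 27.2% and 30.3% of cells with and 45.8%, 37.4% and 42.6% of cells without, and cells of the Krt13/Krt4-high class, in which *Nqo1* was high, 15.6%, 8.20% and 7.92% against 5.17%, 3.604% and 4.17%. Cells were also matched for class, for presence of *Nkx2-1* UMIs and for total UMIs inside each library, with full counts. *Nqo1* was then at 0.17 with the block (SE 0.064, adjusted p = 0.292), and no member was called, against 0.265% of genes. In that alternative *Atf3* and *Hbegf* UMIs were read before thinning, so that the cells with such a UMI were others as well, 1298, 1079 and 3292 in place of 801, 646 and 1566, and the parts of the matching and of this change were not told apart. Among *Nkx2-1*-negative cells alone, the Krt13/Krt4-high cells included, it was at 0.43 with the block (SE 0.096, adjusted p = 0.0207).

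*Slc7a11* was higher in cells with in 3 of 3 libraries but by very different amounts, at 28.2, 16.1 and 24.9 CPM against 10.5, 15.2 and 18.3 CPM. The values overlapped, and the difference with the block was 0.69 (SE 0.21, adjusted p = 0.103). Without library 2 it was called with the block, at 0.90 (adjusted p = 0.00587). *Txnrd1* was at 0.22 with the block (SE 0.070, adjusted p = 0.126) and *Nfe2l2* at 0.20 (SE 0.077, adjusted p = 0.180). *Gclm* did not separate the groups, at 263, 293 and 302 CPM against 274, 279 and 306 CPM, and neither did *Gclc*, at 593, 927 and 268 CPM against 584, 834 and 267 CPM. The difference between groups was also compared between *Nkx2-1*-positive and *Nkx2-1*-negative cells, where 0.0% of 13709 genes and no member were called with or without the block, with 117 genes at an unadjusted p under 0.05 in edgeR without it.

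**Figure D5:**
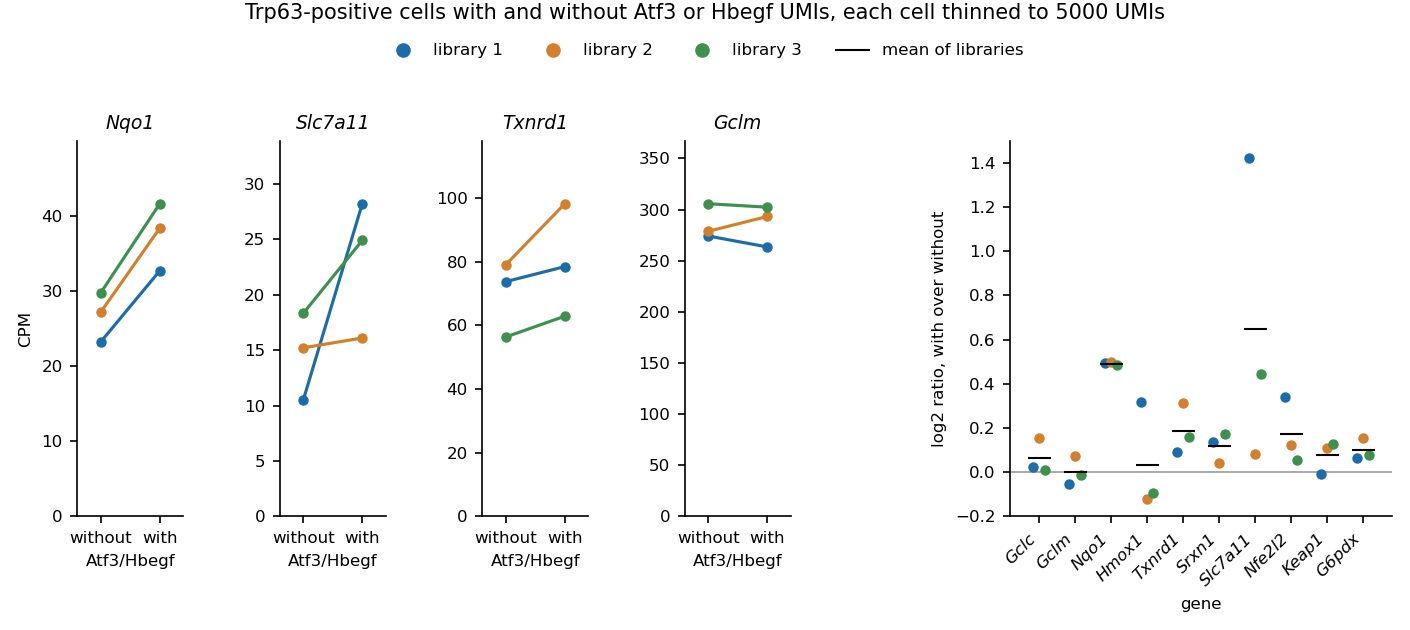
*Trp63*-positive cells with and without *Atf3* or *Hbegf* UMIs. Left, CPM (y axes, linear from 0) of 4 genes, a line for each library; right, the log2 ratio of with over without (y axis) for all 10 genes, points for libraries and lines for their mean. The 3 points of *Nqo1* lie at 0.48 to 0.50 and those of *Slc7a11* between 0.08 and 1.42.

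All 20 AP-1 and dissociation response genes, which did not include *Atf3* or *Hbegf*, were above 0 in these cells, with a median of 1.30 against −0.00 over all genes, 0 called without the block and 17 with it, against 3.19% of genes. The list summed to 6414, 6278 and 3497 CPM with and to 2405, 2347 and 2539 CPM without, so library 3 differed least. *Egr1* rose by 2.66 with the block (SE 0.21, adjusted p = 0.000989). Of the 41 further NRF2 and glutathione genes 40 were tested, and with the block 3 rose and 0 fell, against the same 3.19%, among them *Aldh3a1* by 0.56 (SE 0.094, adjusted p = 0.0138) and *Mafk*, a small MAF partner of NRF2, by 0.53 (SE 0.12, adjusted p = 0.0454). With the block 1 of 16 ATF4 genes rose and 0 fell, and 0 of 10 heme and iron genes tested were called, against 3.19%.

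Cells with and without *Lrig1* UMIs were compared in the same way, since *Lrig1* is the gene behind the reporter. After thinning, 33.2%, 35.2% and 34.1% of cells held an *Lrig1* UMI in libraries 1, 2 and 3. Its mean was 138 CPM over the sums of both groups. All cells were sorted for the reporter, and at this level a cell without a UMI can still express *Lrig1*. How far this narrows the differences between the groups was not tested. No member was called with or without the block, against 16.5% and 0.0% of 14696 genes, with 254 at an unadjusted p under 0.05 in edgeR without it and 1 called by DESeq2. Krt13/Krt4-high cells made up 3.86%, 3.28% and 3.24% of cells with *Lrig1* UMIs and 8.78%, 5.04% and 5.36% of cells without. Cells were also matched for class, for presence of *Nkx2-1* UMIs and for total UMIs to within 10% inside each library. *Lrig1* UMIs were read before thinning there. With the block 2 of 10 members were then called, against 23.7% of genes, *Gclm* at −0.14 (adjusted p = 0.00843) and *Hmox1* at −0.39 (0.0334). The matched cells with *Lrig1* UMIs were still shallower in all 3 libraries, with medians of 12259, 14077 and 9875 UMIs against 13112, 15355 and 10348, and the part of this gap in those calls was not tested. Likewise, the part of the makeup in the list counts below was not tested. *Hmox1* was the nearest to the threshold, at 6.0, 8.27 and 5.93 CPM in cells with *Lrig1* UMIs against 8.01, 11.9 and 7.0 CPM in cells without, lower in 3 of 3 libraries, with overlap between the groups. With the block it was at −0.37 (SE 0.13, adjusted p = 0.0536). *Gclm* differed by −0.05 (SE 0.032) and *Keap1* by −0.06 (SE 0.041) with the block. Of the 40 further NRF2 and glutathione genes tested, 1 rose and 19 fell with the block, against 16.5%, with *Nfe2l3* at 0.30 and *Txn1* at −0.33, a median of −0.11 against −0.01 over all genes. Of the other lists 0 of 16 ATF4, 0 of 20 AP-1 and 0 of 10 heme and iron genes rose and 6, 12 and 2 fell with the block, against 16.5%.

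For the 3 members with the widest range of class levels, the genes of most similar pattern were sought over 24 epithelial sums, which share libraries and classes, so that r is a description only. Among 9890 genes, *Ap1s3* (r = 0.96), *Myof*, *Mycl*, *Klf3* and *Adh7* (r = 0.93) were most like *G6pdx*, and *Arap2* (r = 0.94), *Gk*, *Blnk*, *Mid2* and *Smagp* (r = 0.88) most like *Nqo1*. For *Slc7a11* they were *Ripk2* (r = 0.82), *Tmem45a*, *Pmm2*, *Kcnj16* and *Mfsd4a* (r = 0.78). Among the members, r was highest for *Gclc* with *Gclm* (0.71) and lowest for *Srxn1* with *G6pdx* (−0.64).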

How the data were processed

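Sorted cells of 3 pools were profiled with the 10x 3′ assay. The authors aligned reads to mm39 (GRCm39) with Cell Ranger 8.0.1, per the submitters' processing notes and the file header, and deposited raw UMI counts per gene and barcode; the annotation release is not given in the sources used here.

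Barcodes were kept between 500 and 8000 genes, between 1000 and 40000 UMIs and up to 8% of UMIs from mitochondria, which are the study's limits with genes and UMIs exchanged from its wording, and 4851 resembling simulated doublets (30 components, 50 neighbours, 0.4% per 1000 barcodes) were removed. The gates left 38.0% of cells unassigned. Counts were summed per library and class with at least 20 cells and tested by quasi-likelihood in edgeR 4.0.16 under R 4.3.3, after filterByExpr and TMM scaling, with all epithelial class sums in 1 fit and no covariates, at a Benjamini-Hochberg adjusted p of 0.05; DESeq2 1.42.0 and scaling by total UMIs, the scale of CPM, were alternatives, the latter chosen after seeing the data. CPM are of the summed counts. The cells of the *Trp63* comparisons were thinned to 5000 UMIs, shallower ones left out, and gating genes were not tested.

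Same-numbered sums come from the same pool: the deviations of a library's sums from their group means correlated by 0.20 to 0.92 over genes, in every pair tested. Values with that block are given where they change a member's call or move a count by over 1.5 times. Libraries are pools of separate animals, and all p-values come from these 3 pools. Without the block they rest on the spread of sums around their group means, with sums of the same pool treated as independent. With the block they rest on the spread left after differences between pools are taken out.

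All 10 members entered every comparison, though not each is named in all of them. From each list up to 4 genes at 10 CPM or more were named, from the 2 highest and 2 lowest fold changes. Members and lists were chosen with earlier results of these data known. The Scgb3a2-high, ciliated and gland acinar comparisons and the test by *Nkx2-1* were added after class sizes were seen. The edgeR step without the block was run on simulated counts that held no pool effect. That run cannot show how the step behaves with sums correlated within a pool. Python 3.11.15 was used for sums and figures.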

Additional observations from a re-analysis of the deposited data

How the results depend on the processing

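With 3 pools, classes of 20 to 100 cells and genes under 10 CPM were measured least firmly, and *Hmox1*, *Srxn1* and *Slc7a11* rest on few UMIs in the small classes. Of 384 alternatives run for 25 member results called in a fit with or without the block, 318 kept direction and call, 38 lost the call, 27 gained one and 1 reversed: *Nqo1* in gland acinar cells, at -0.00497 under the cell limits as worded in the study (500 to 8000 UMIs). Of 1119 run for the 65 results called in neither fit, 989 kept direction and stayed uncalled, 21 gained a call and 109 changed sign, 3 of them with a call. Where no cause is shown by fewer samples or cells, it was not tested. Beyond the calls given above, the replicate block changed no other member's call. Scaling by total UMIs, alternatives combining the block with another choice, and those of the added comparisons, were chosen after seeing the data.

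For *Atf3* or *Hbegf*, genes called went from 0 to 6 with no filter, 57 with DESeq2 and 0 to 15 leaving out a library. With the replicate block they were 461, then 434, 498 and 414 without library 1, 2 and 3, 393 with DESeq2, 508 with doublets kept, 21 under the limits as worded, 378 and 1016 thinned to 2000 and 10000 UMIs, 41 matched, 503 with at least 2 *Trp63* UMIs, 489 and 40 in *Nkx2-1*-negative and positive cells, 141 and 1049 for *Atf3* and *Hbegf* alone, 568 with at least 2 UMIs and 413 scaled by total UMIs. Members called with the block were 1, against 3.19% of genes. In the alternatives with it they were 0 to 3, against the counts of genes just given, and 0 when matched, against 0.265% of genes. Over all 35 alternatives, with and without the block, *Nqo1* was called in 10 and not called in 25.

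For *Lrig1*, genes called were 1 with DESeq2 and, with the replicate block, 2419, then 1608, 2319 and 1313 without library 1, 2 and 3, 758 with DESeq2, 2532 with doublets kept, 14 under the limits as worded, 824 and 3211 thinned to 2000 and 10000 UMIs, 3697 matched, 2264 with at least 2 *Trp63* UMIs, 1750 and 576 in *Nkx2-1*-negative and positive cells, and 2420 scaled by total UMIs. Members called were 1 without library 2, 2 at 10000 UMIs, 2 matched and 1 with at least 2 *Trp63* UMIs.

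For Krt13/Krt4-high cells, genes called were 3129, 5863 with the replicate block, 1914 with gate thresholds halved and 1028 to 2603 leaving out a library; members were 4, 7, 2 and 2 to 3. Between basal classes they were 821, 2368 with the block, 0 under the limits as worded, 543 thinned, 1533 with thresholds doubled and 200 to 1228 leaving out a library; members were 1, 2 with the block, 0 under the limits, 2 with thresholds doubled, 2 with only the classes compared and 0 to 2. For Scgb1a1-high cells they were 546, 131 thinned, 1403 with thresholds doubled, 67 with only the classes compared and 318 to 736 leaving out a library; members were 0, 1 with thresholds doubled and 0 to 1. For Scgb3a2-high cells they were 1100, 2574 with the block, 514 thinned and 281 to 1519; members were 1, 3 with the block, 2 with no filter, 2 with thresholds doubled and 0 to 2. For ciliated cells they were 10869, 5358 under the limits as worded and 8828 to 10220, with 4 to 5 members. For gland acinar cells they were 5652, 1432 under the limits and 3432 to 5356; members were 7, 4 under the limits and 4 to 7. Scaled by total UMIs, genes called were 1441 for Scgb1a1-high (1 member) and 8505 for gland acinar cells. With the replicate block and that scaling they were 6212 for Krt13/Krt4-high, 2268 between basal classes (2 members), 1455 for Scgb1a1-high (1 member), 2968 for Scgb3a2-high (3 members) and 10490 for gland acinar cells. The limits as worded gave no value for Krt13/Krt4-high, Scgb1a1-high or Scgb3a2-high cells, nor did leaving out library 1 for Scgb1a1-high cells.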
